A study of Mus musculus with 18 samples.

Results

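The genes described here were 10 markers of liver zonation and Wnt signalling, chosen by gene name out of the 54532 genes in the tables. Of these, 7 are expressed around the central vein or are known Wnt targets (Glul, Oat, Axin2, Lgr5, Tbx3, Rnf43 and Znrf3) and 3 are expressed around the portal tract (Hal, Sds and Cdh1). RNA was taken from whole livers of 18 male wild-type C57BL/6J mice that began a control diet (Ctrl) or a riboflavin-deficient diet (B2D) at 4 weeks of age and fasted overnight before harvest. After 1 month on diet there were 5 Ctrl and 5 B2D mice. In a separate experiment, 4 control mice (Ctrl+FF) and 4 deficient mice (B2D+FF) stayed on diet for 9 weeks, received the PPARα agonist fenofibrate (FF) daily by gavage from week 7 to week 9, and were given FF again 2 hours before harvest. Each mouse gave 1 library, and the mice are numbered within their groups.

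Liver lobules are zoned: blood enters at the portal tract and drains to the central vein, and hepatocytes along that path carry different enzymes. Wnt ligands and R-spondins made by endothelial cells of the central vein stabilise β-catenin in the nearest hepatocytes, which then express the pericentral program, while periportal hepatocytes lie outside the reach of this signal and handle urea synthesis, gluconeogenesis and much of amino acid breakdown. β-catenin acts in the nucleus with TCF and LEF factors, which bind DNA at motifs built around CTTTGA.

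RefSeq promoter windows (250 bases before to 50 bases after the transcription start, build GRCm38.p6) were on hand for 5 of the 10 genes: Glul, Oat, Axin2, Rnf43 and Hal. They were searched on both strands for CTTTGA, whose reverse complement is TCAAAG. The window of Hal held 1 match, which starts at base 52 of the window on the plus strand, and none of the other windows held one. The motif is common, and 16.0% of the 32851 windows of the genome contained it. Windows are shown for the main pericentral enzyme, the general Wnt target and the periportal enzyme with the match, which is in capitals. A match describes these letters and is not a measured binding site.
Glul, chr1:153899679-153899978, plus strand: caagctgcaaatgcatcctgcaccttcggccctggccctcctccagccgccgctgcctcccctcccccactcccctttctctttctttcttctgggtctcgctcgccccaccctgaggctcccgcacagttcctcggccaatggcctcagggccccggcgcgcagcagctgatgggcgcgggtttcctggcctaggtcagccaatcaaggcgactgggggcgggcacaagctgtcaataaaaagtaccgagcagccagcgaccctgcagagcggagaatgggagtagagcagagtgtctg
Axin2, chr11:108920099-108920398, plus strand: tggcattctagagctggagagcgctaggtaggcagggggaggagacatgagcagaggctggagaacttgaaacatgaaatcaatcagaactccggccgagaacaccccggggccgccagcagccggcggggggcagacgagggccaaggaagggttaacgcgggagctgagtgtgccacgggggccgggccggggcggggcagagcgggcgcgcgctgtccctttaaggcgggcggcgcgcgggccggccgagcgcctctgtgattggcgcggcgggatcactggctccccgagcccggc
Hal, chr10:93488518-93488817, plus strand: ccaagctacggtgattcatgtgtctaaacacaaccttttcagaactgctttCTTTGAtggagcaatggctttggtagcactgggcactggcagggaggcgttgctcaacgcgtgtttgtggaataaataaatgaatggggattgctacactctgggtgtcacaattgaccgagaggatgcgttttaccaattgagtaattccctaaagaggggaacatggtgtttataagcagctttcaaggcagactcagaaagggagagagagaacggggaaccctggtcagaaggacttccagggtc

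Expression is given as FPKM, the fragments counted on a gene divided by its length in kilobases and by a library size factor. Between 15320729 and 21898502 reads fell on genes in each library, and any pair of mice within a group correlated with a Pearson r between 0.979 and 0.994 across genes (log2 scale). The livers expressed the hepatocyte markers at high level, with Alb between 11460 and 32366 FPKM. Summed FPKM of 5 proliferation markers did not exceed 1.07. Summed FPKM of 8 cholangiocyte markers ranged from 14.4 to 42.2 in Ctrl, 13.5 to 27.4 in B2D, 10.03 to 14.4 in Ctrl+FF and 7.26 to 11.7 in B2D+FF. Whole liver was measured, so fewer cells of a type and less RNA per cell cannot be told apart. The diets were compared within each table by limma on log2(FPKM + 1), with genes called at a Benjamini-Hochberg adjusted p under 0.05. A log2 difference is the B2D mean minus the control mean on that scale, and for weakly expressed genes it is smaller than the true change.

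Neither the pericentral nor the periportal genes were called different between B2D and Ctrl. Among all 11574 genes tested, 313 passed the threshold (2.7%), of which 224 were lower (1.94%) and 89 higher (0.769%) in B2D. Of the 10 zonation genes, 9 reached the filter of a mean of at least 0.5 FPKM, and Lgr5 stayed under it in both tables. Of these 9, 0 were called by limma and 0 had an unadjusted p under 0.05, against 18.4% of all genes tested. By limma voom on the reads recovered from the FPKM values, fitted without a filter, 0 of 10 were called and 1, Tbx3, had an unadjusted p under 0.05. The diets did not separate for any of the 10 genes, and 4.98% of all genes tested had no overlap between B2D and Ctrl. With shares this small, 0 calls and 0 separated genes do not set the zonation genes apart from other genes. By limma voom, whose scale does not shrink the changes of low genes as log2(FPKM + 1) does, the 95% intervals of 9 of 10 excluded a 2-fold change in either direction, Tbx3 being the exception.

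**Figure D1:**
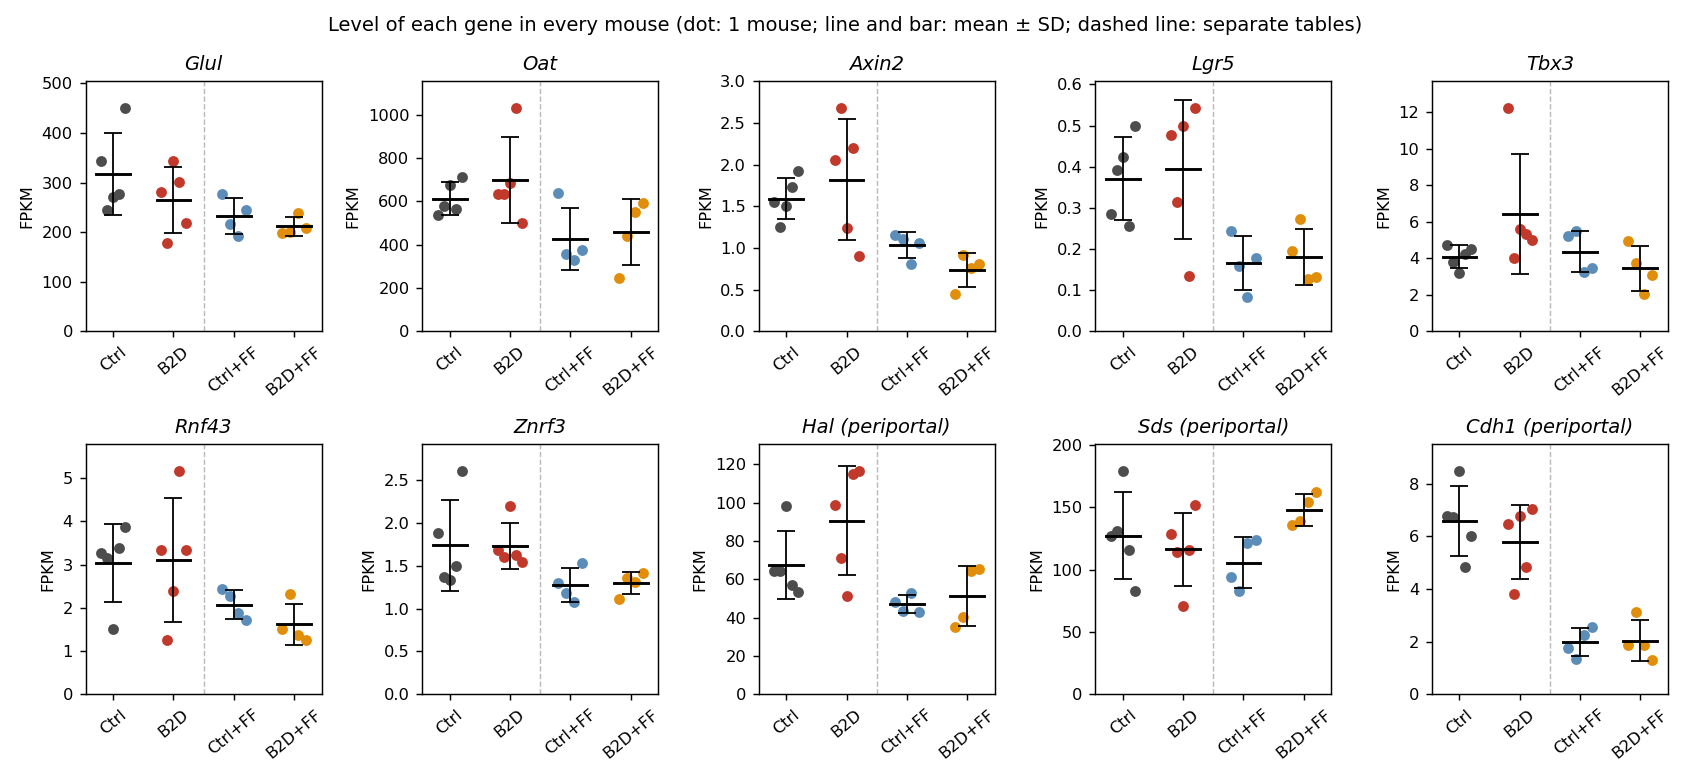
FPKM of each gene (vertical axes, linear, starting at 0) in the 4 groups, with 1 dot per mouse, the mean as a line and the SD as a bar; the dashed line separates the tables, which were normalized apart. Within each table the diets overlap for every gene except Sds with fenofibrate, and Cdh1 is the gene whose 10 mice without fenofibrate all lie above the 8 with it.

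Glul encodes glutamine synthetase, which captures ammonia in the last layer of hepatocytes before the central vein (ENSMUSG00000026473, chromosome 1 of GRCm38 from 153899944 to 153909723). It was at 344, 245, 272, 277 and 451 FPKM in Ctrl 1 to 5 and at 282, 179, 344, 300 and 220 FPKM in B2D 1 to 5. Ctrl 5 was the highest of the 10 mice and B2D 2 the lowest, and the other mice of both diets were interleaved. Ctrl averaged 318 ± 82.9 (SD, n = 5) and B2D averaged 265 ± 65.8 (SD, n = 5), with a log2 difference of -0.26 (95% interval -0.71 to 0.18, limma adjusted p = 0.520). With fenofibrate, Glul was at 276, 216, 192 and 245 FPKM in Ctrl+FF and at 198, 201, 239 and 209 FPKM in B2D+FF. All 4 B2D+FF mice fell inside the Ctrl+FF range, and the log2 difference was -0.13 (95% interval -0.41 to 0.16, limma adjusted p = 0.622).

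Oat encodes ornithine aminotransferase, the pericentral mitochondrial enzyme that links ornithine to glutamate (chromosome 7 from 132557478 to 132576398). Fgfr2 overlaps it on the same strand and was at 0.966 to 2.61 FPKM. Oat was the most abundant of the 10 genes per length, at 537 to 711 FPKM in Ctrl and 502 to 1032 FPKM in B2D. The log2 difference of 0.15 had a standard error of 0.174 (limma adjusted p = 0.673). With fenofibrate, Ctrl+FF 1 was at 639 FPKM while the other Ctrl+FF mice were between 331 and 375, and the B2D+FF mice spread from 248 to 592 FPKM. The diet difference was 0.084 on the log2 scale, with a 95% interval from -0.58 to 0.75, the widest of the 10 genes in that experiment.

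Axin2 encodes a scaffold of the β-catenin destruction complex and is itself induced by Wnt signalling in many tissues (ENSMUSG00000000142, chromosome 11 from 108920349 to 108950783). Its FPKM was 1.55, 1.25, 1.51, 1.73 and 1.92 in Ctrl and 2.06, 2.68, 1.24, 2.20 and 0.908 in B2D. The B2D mice lay on both sides of the Ctrl range, with 3 above it and 2 below it, and the log2 difference was 0.085 (95% interval -0.28 to 0.45, limma adjusted p = 0.823). In Ctrl+FF, Axin2 was at 1.16, 1.10, 0.805 and 1.06 FPKM. In B2D+FF it was at 0.448, 0.920, 0.764 and 0.806 FPKM, below the other group in 2 of 4 mice. The log2 difference was -0.23 (95% interval -0.48 to 0.0088, limma adjusted p = 0.252). By limma voom without a filter it was -0.50, with an unadjusted p of 0.0435 and an adjusted p of 0.319. Between 42 and 252 reads per library stood behind these values.

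Lgr5 encodes a receptor for R-spondins and marks pericentral hepatocytes. It was the least abundant of the 10 genes per length, at 0.255 to 0.498 FPKM in Ctrl, 0.136 to 0.543 in B2D, 0.0841 to 0.243 in Ctrl+FF and 0.127 to 0.273 in B2D+FF. The lowest library held 15 reads on it and the highest 107. Fitted without a filter, the diet effect on the log2 scale was 0.018 without fenofibrate and 0.019 with it (limma adjusted p = 0.949 and 0.891).

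Tbx3 encodes a T-box transcription factor that is a Wnt target in pericentral hepatocytes (ENSMUSG00000018604, chromosome 5 from 119670669 to 119684724). Its FPKM was 4.73, 3.81, 3.18, 4.23 and 4.52 in Ctrl and 12.2, 3.998, 5.63, 5.36 and 5.002 in B2D. Of the 5 B2D mice, 4 were above every Ctrl mouse and B2D 2 was inside their range. The log2 difference of 0.47 (95% interval -0.0098 to 0.94) missed the threshold (limma adjusted p = 0.283), and without B2D 1 it was 0.24. With fenofibrate the order of the means was opposite, with 5.22, 5.49, 3.28 and 3.50 FPKM in Ctrl+FF and 4.97, 3.76, 2.04 and 3.08 FPKM in B2D+FF. Those ranges overlapped, and the log2 difference was -0.28 (95% interval -0.77 to 0.20, limma adjusted p = 0.483). The antisense transcript Tbx3os1 overlaps the gene and was at 0.720 to 2.49 FPKM over the 18 mice. Whether reads were counted by strand is not given in the sources used here, so its part in the Tbx3 values was not tested.

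Rnf43 and Znrf3 encode membrane ubiquitin ligases that remove Frizzled receptors and are induced by Wnt signalling, a negative feedback that R-spondins relieve. Rnf43 was at 1.50 to 3.88 FPKM in Ctrl and 1.26 to 5.18 in B2D, with a log2 difference of -0.018 (standard error 0.249, limma adjusted p = 0.978). In the fenofibrate experiment it was at 1.71 to 2.43 FPKM in Ctrl+FF and 1.26 to 2.32 in B2D+FF, a log2 difference of -0.24 (standard error 0.133, limma adjusted p = 0.333). Znrf3 was at 1.33 to 2.61 FPKM in Ctrl and 1.55 to 2.20 in B2D, and at 1.08 to 1.53 in Ctrl+FF and 1.11 to 1.41 in B2D+FF. Its log2 differences were 0.011 and 0.016, and both limma 95% intervals lay within 0.30 of 0. The values of both ligases overlapped between the diets in each experiment.

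Hal encodes histidine ammonia-lyase, the periportal enzyme that opens histidine breakdown (ENSMUSG00000020017, chromosome 10 from 93488768 to 93519304). It was at 64.4, 64.3, 98.4, 57.3 and 53.5 FPKM in Ctrl and at 99.0, 71.1, 51.4, 115 and 117 FPKM in B2D. Of the B2D mice, 3 were above every Ctrl mouse and B2D 3 was below all of them. The log2 difference was 0.39 (95% interval -0.12 to 0.90, limma adjusted p = 0.400), and it ranged from 0.28 to 0.57 when single mice were left out. With fenofibrate Hal was at 42.9 to 53.1 FPKM in Ctrl+FF and at 35.3, 40.1, 64.5 and 65.1 FPKM in B2D+FF. These 4 mice lay 2 below and 2 above the Ctrl+FF range, with a log2 difference of 0.079 (95% interval -0.37 to 0.53, limma adjusted p = 0.862).

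Sds encodes serine dehydratase, which turns serine into pyruvate and rises in fasting liver (ENSMUSG00000029597, chromosome 5 from 120476526 to 120483932). Without fenofibrate it was at 127, 131, 179, 115 and 82.7 FPKM in Ctrl and 128, 114, 71.0, 116 and 152 FPKM in B2D. Both diets covered nearly the same span, and the log2 difference was -0.13 (95% interval -0.61 to 0.36, limma adjusted p = 0.796). With fenofibrate it was at 94.3, 82.8, 122 and 123 FPKM in Ctrl+FF and 136, 139, 154 and 162 FPKM in B2D+FF. All 4 B2D+FF mice were above all 4 Ctrl+FF mice, as were the B2D+FF mice for 7.82% of all genes tested, and in either direction the groups did not overlap for 14.3%. The means were 106 ± 20.2 (SD, n = 4) and 148 ± 12.5 (SD, n = 4), a fold of 1.41 on the log2(FPKM + 1) scale (95% interval 1.13 to 1.77). The log2 difference of 0.50 had a standard error of 0.143, an unadjusted p of 0.00654 and a limma adjusted p of 0.0826, so it did not pass the threshold. Over all alternatives the adjusted p ranged from 0.0454, by limma voom without a filter (chosen after seeing the data), to 0.251. By limma voom with the filter it was 0.0560. Sds overlaps the antisense transcript Gm15690, which was at 7.92 to 16.4 FPKM in Ctrl+FF and 5.42 to 21.7 FPKM in B2D+FF, and Plbd2 on the other strand at 13.6 to 17.3 FPKM over these 8 mice. Their part in the Sds values was not tested.

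Cdh1 encodes E-cadherin, the adherens junction protein of epithelial cells, which is highest in periportal hepatocytes and is also made by bile duct cells (ENSMUSG00000000303, chromosome 8 from 106603351 to 106670246). It was at 6.78, 6.74, 8.50, 4.82 and 6.03 FPKM in Ctrl and 6.46, 3.79, 6.78, 4.82 and 7.05 FPKM in B2D. The diets overlapped, with a log2 difference of -0.17 (95% interval -0.53 to 0.19, limma adjusted p = 0.616). With fenofibrate it was at 1.76, 1.35, 2.26 and 2.54 FPKM in Ctrl+FF and 1.86, 3.12, 1.87 and 1.29 FPKM in B2D+FF. The diets overlapped again, and the log2 difference was 0.011 (95% interval -0.41 to 0.43, limma adjusted p = 0.983).

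With fenofibrate, 0 of the 9 genes that passed the filter were called between B2D+FF and Ctrl+FF by limma, where 529 of 11878 genes were called (4.45%), 266 higher (2.24%) and 263 lower (2.21%). At an unadjusted p under 0.05, 1 passed, Sds, against 21.2% of all genes tested. By limma voom without a filter 1 of 10 was called, again Sds, and 2 had an unadjusted p under 0.05, Axin2 and Sds. All 10 limma voom intervals excluded a 2-fold change. The median log2 difference was -0.18 for the 6 filtered pericentral genes and 0.079 for the 3 periportal genes, beside 0.013 for all genes tested. Without fenofibrate the same medians were 0.048 and -0.13, beside -0.0013 for all genes.

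The diet effects of the experiments were compared as a contrast in a fit of all 18 libraries, which asks whether B2D acted differently with fenofibrate at 9 weeks than without it at 1 month. Of the 9 genes, 0 passed limma's adjusted threshold, which 27 of 11862 genes passed (0.228%). At an unadjusted p under 0.05, 2 passed, against 11.9% of all genes, and by limma voom without a filter 0 were called and the same 2 had an unadjusted p under 0.05. For Tbx3 the effect with fenofibrate was lower by -0.75 on the log2 scale (95% interval -1.45 to -0.052, limma adjusted p = 0.385). For Sds it was higher by 0.63 (95% interval 0.0073 to 1.25, limma adjusted p = 0.414). The other differences ranged from -0.32 for Axin2 to 0.18 for Cdh1. Intervals were wider here, and 5 of 10 excluded a 2-fold difference by limma voom. Fenofibrate, time on diet and table changed together and cannot be told apart.

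**Figure D2:**
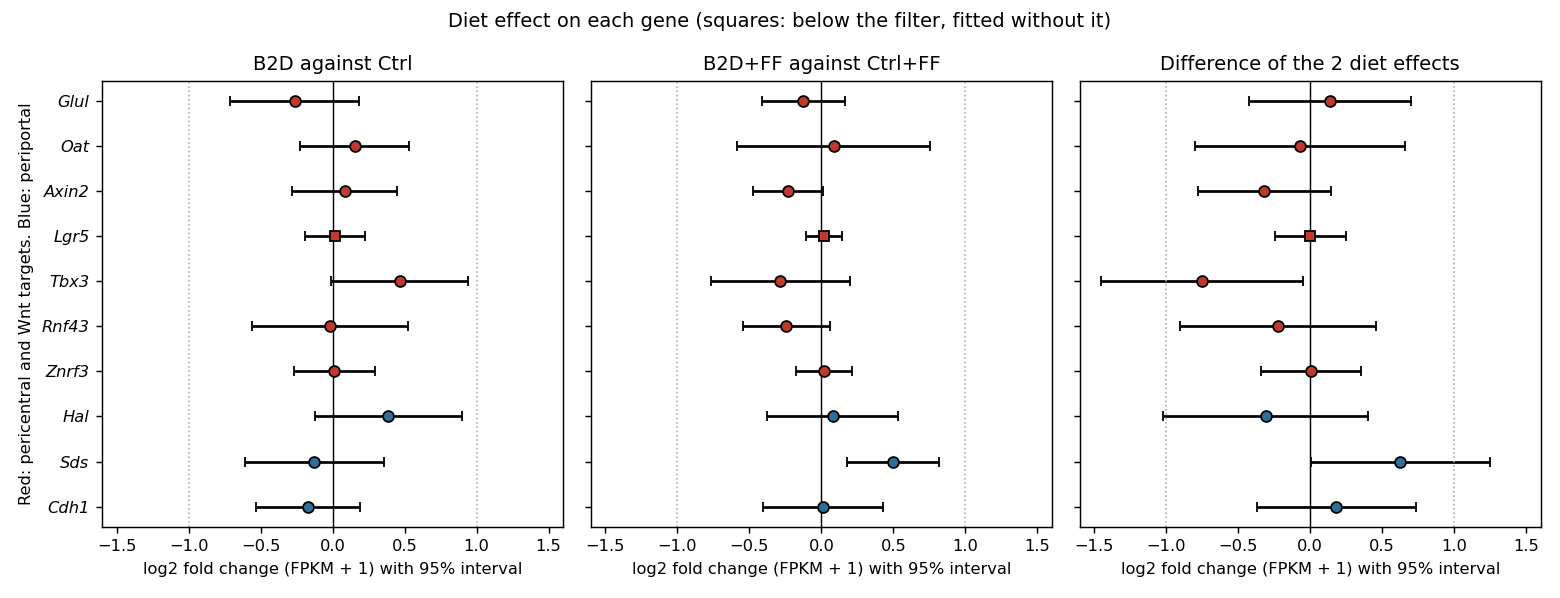
Log2 differences (horizontal axes, on log2(FPKM + 1)) with 95% intervals for the 10 genes (vertical axis) in B2D against Ctrl, B2D+FF against Ctrl+FF, and the difference between them, with pericentral genes in red, periportal genes in blue and Lgr5 as a square from the fit without a filter; dotted lines mark a 2-fold change of FPKM + 1, which weakly expressed genes such as Lgr5 do not reach with a 2-fold change of FPKM. The intervals include 0 for all genes without fenofibrate and exclude it for Sds with fenofibrate and for Tbx3 and Sds in the difference, none of which passed the adjusted threshold.

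Across the tables, levels were set side by side without a test, since the tables were normalized separately. Within the control diet, means were lower with fenofibrate than without it for 9 of the 10 genes, Tbx3 being the exception (4.37 against 4.09 FPKM), and within the deficient diet for 9 of 10, Sds being the exception (148 against 116 FPKM). Over both diets, 54.4% of 11862 genes were lower with fenofibrate, with a median log2 difference of -0.036. Cdh1 averaged 6.58 FPKM in Ctrl, 5.78 in B2D, 2.03 in B2D+FF and 1.98 in Ctrl+FF, and the lowest of the 10 mice without fenofibrate, at 3.79 FPKM, was above the highest of the 8 with it, at 3.12. Of all genes, 12.7% had no overlap between the tables, 4.16% being lower with fenofibrate. The summed cholangiocyte markers given above were also lower with fenofibrate, and Spp1 was the largest part of that sum in Ctrl (9.63 to 35.4 FPKM). Single markers differed. Epcam was at 0.144 to 1.35 FPKM without fenofibrate and 0.0282 to 0.432 with it, while Sox9 was at 0.503 to 0.952 in Ctrl and 1.04 to 1.54 in Ctrl+FF. The summed hepatocyte markers were lower with fenofibrate too, at 29126 to 39722 FPKM in Ctrl and 20401 to 23369 in Ctrl+FF. The part of bile duct cells in the Cdh1 levels was not tested. Axin2 averaged 1.82 FPKM in B2D, 1.59 in Ctrl, 1.03 in Ctrl+FF and 0.734 in B2D+FF, with no overlap between Ctrl and Ctrl+FF. Between these groups 4 of 10 genes did not overlap, Axin2, Lgr5, Hal and Cdh1, where 30.2% of all genes did not. Between B2D and B2D+FF 2 of 10 did not overlap, Znrf3 and Cdh1, where 28.1% of all genes did not. For Glul, Oat, Tbx3, Rnf43 and Sds the groups overlapped in both diets.

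Mice within a group differed along the zonation genes. The pericentral and periportal genes lay on opposite sides in Ctrl 5, and in part in Ctrl 3. Ctrl 5 was above the median of its group in 7 of 7 pericentral genes and the highest in 6, while it was the lowest in Hal and Sds. Ctrl 3 was the highest in all 3 periportal genes and the lowest in 3 of 7 pericentral genes, but it was above the group median in 2, Oat and Lgr5. In B2D the sides were also opposite only in part. B2D 5 was the highest in 3 of 3 periportal genes and the lowest in 3 of 7 pericentral genes, but the highest in Lgr5. B2D 3 was the highest in Glul and Znrf3 and the lowest in Hal and Sds, but above the group median in Cdh1. With fenofibrate, Ctrl+FF 1 was above its group median in 7 of 7 pericentral genes and Ctrl+FF 3 the lowest in 6 of 7. B2D+FF 1 was the lowest in 4 of 7 pericentral genes and also in Hal and Sds.

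Lists of other zoned genes set some of the same mice apart. In Ctrl 5, 19 of 21 other pericentral genes were above the group mean with a median deviation of 0.30 on the log2 scale, and the 19 other periportal genes had a median of -0.22. In Ctrl 3 the medians were -0.28 and 0.30. In Ctrl+FF 1, 19 of 21 pericentral genes were above the mean (median 0.22) and the periportal median was 0.058. Pericentral and periportal medians were 0.14 and -0.16 in B2D 3, and -0.16 and -0.28 in B2D+FF 1. In B2D 5 and Ctrl+FF 3 the pericentral list lay near its group mean, at -0.049 and -0.023 with 9 of 21 genes above it in each, and the periportal medians were 0.14 and 0.096. B2D 2 was low in both lists, at -0.25 and -0.25, and it had the fewest reads of the 18 libraries. Ctrl 5 had the most reads of the Ctrl libraries (21266792) and the fewest genes with a read in that group (17079). B2D 3 had the fewest genes with a read of the 18 libraries (15866, from 17909343 reads), and Ctrl 3 had the most in Ctrl (19245). Ctrl+FF 1, at 19231, was inside the range of the other Ctrl+FF libraries (19175 to 19489). The part of depth and of the number of genes with a read in these deviations was not tested.

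**Figure D3:**
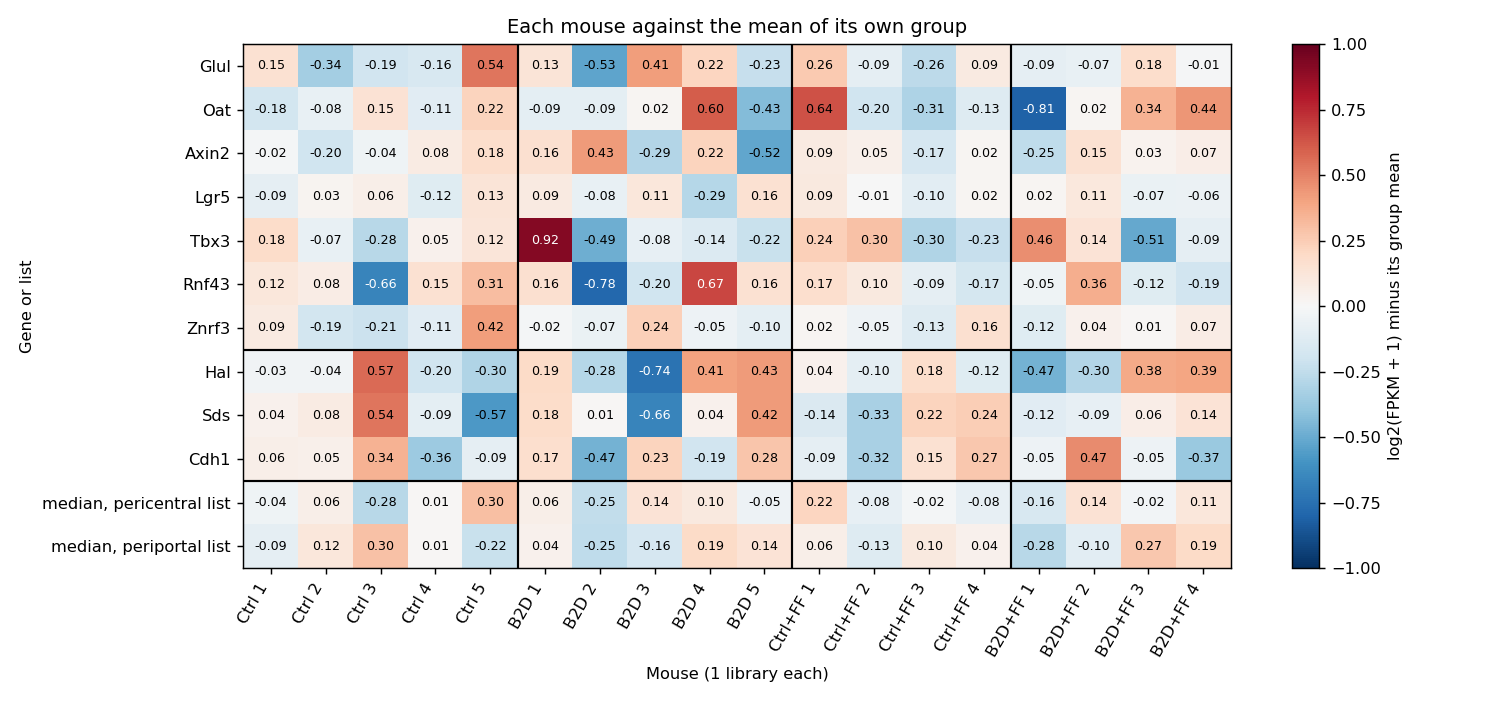
Log2(FPKM + 1) of each gene minus the mean of its group (colour and printed value, rows) in each of the 18 mice (columns, vertical lines between groups), with the medians of the lists of other pericentral and periportal genes in the bottom rows. Ctrl 5 is red in all 7 pericentral rows and blue in the 3 periportal rows, and Ctrl 3 is red in the 3 periportal rows.

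Pairs of genes were compared by how often they deviated from the group mean in the same direction. Over the 45 pairs, this was the case in 3 to 14 of 18 mice, with a median of 9. Glul and Znrf3, Oat and Znrf3, and Tbx3 and Rnf43 deviated together in 14 mice each, and Hal and Sds, and Lgr5 and Cdh1, in 13 each. Tbx3 and Sds deviated together in 3 mice and Axin2 and Cdh1 in 4. Likeness to Glul, Axin2 and Hal was measured by root-mean-square difference of scaled log2(FPKM + 1) in the 18 libraries, over genes that passed the filter in both tables (9936 protein-coding genes). The closest of the zonation genes to Glul was Znrf3, at rank 230. The genes most like Axin2 were Chpf2 (0.47), Pcnx3 (0.52) and Hps1 (0.54), and for Hal they were Cyp2d22 (0.56), Rbm12b1 (0.57) and Pfas (0.58), with Sds at rank 143.

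The Wnt pathway was followed from ligand to target. Of 12 ligands, R-spondins and secretion factors, 5 were tested without fenofibrate and 4 with it. By limma and by limma voom 0 were called in either (0 and 1 at an unadjusted limma p under 0.05). Under quantile normalization 1 of the 4 was called higher in B2D+FF. Wnt2, a ligand of central vein and sinusoidal endothelium, averaged 1.86 ± 0.518 FPKM in the 5 Ctrl mice and 1.79 ± 0.518 in the 5 B2D mice (SD). Rspo3, the main R-spondin of the central vein, averaged 1.40 ± 0.313 FPKM in the 5 Ctrl mice and 1.89 ± 0.545 in the 5 B2D mice (SD), a log2 difference of 0.26 (limma adjusted p = 0.343). In the 4 Ctrl+FF and 4 B2D+FF mice it averaged 0.955 ± 0.221 and 1.05 ± 0.243 FPKM (SD).

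Among receptors, 0 of 9 tested were called without fenofibrate (2 at an unadjusted p under 0.05). With fenofibrate, 2 of 8 tested fell in B2D+FF, Fzd4 and Fzd8, and the estimates of the other receptors were also below 0, with a median log2 difference of -0.27 for the list beside 0.013 for all genes. The 8 estimates were below 0 under upper-quartile rescaling, quantile normalization and limma voom as well. Fzd4, a Frizzled receptor, was at 7.59 ± 0.393 FPKM (SD, n = 4) in Ctrl+FF and 5.46 ± 0.389 (SD, n = 4) in B2D+FF (log2 difference -0.41, limma adjusted p = 0.0186). Its limma adjusted p was 0.0924 without fenofibrate, where the log2 difference was -0.54. Fzd8 was at 2.83 ± 0.280 FPKM (SD, n = 4) and 1.47 ± 0.438 (SD, n = 4) (log2 difference -0.65, limma adjusted p = 0.0245). In the fits with a mouse left out, Fzd4 passed in 6 of 8 and Fzd8 in 4 of 8, and the list had from 0 to 2 calls. With all 4 groups in 1 fit 0 receptors were called in B2D+FF against Ctrl+FF (limma adjusted p = 0.121 for Fzd4 and 0.120 for Fzd8). In that fit 1 receptor was called lower in B2D against Ctrl. Without a filter Fzd8 lost its call with fenofibrate (0.0712). By limma voom the log2 difference of Fzd8 was -0.99. The 13 genes of the destruction complex and its transducers, the 12 tested nuclear partners of β-catenin, and the other Wnt targets and secreted inhibitors (9 tested without fenofibrate and 8 with it) had 0 calls in both comparisons, as did 9 adherens junction partners of Cdh1. By limma voom, 3 of these genes were called lower in B2D+FF (named after their values were seen): Amer1, a scaffold of the destruction complex (log2 difference -1.30, adjusted p = 0.0182), Tle3, a co-repressor of TCF factors (-0.93, adjusted p = 0.0469), and Cldn2, a claudin (-0.61, adjusted p = 0.0279). At an unadjusted limma p under 0.05 these 4 lists had 2, 4, 2 and 0 genes without fenofibrate and 1, 4, 2 and 0 with it. With all 4 groups in 1 fit, 1 destruction complex gene was called higher and 1 nuclear partner lower in B2D, and 1 nuclear partner higher in B2D+FF. Under upper-quartile rescaling, 1 destruction complex gene and 1 other target were called lower in B2D+FF. At a mean FPKM of at least 5, 1 other target was. Ctnnb1 stands both in the destruction complex and junction lists.

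Other pericentral hepatocyte genes were more often lower than higher in B2D, and with fenofibrate the calls went in both directions. Without fenofibrate, 15 of 21 tested had an estimate below 0. The median log2 difference was -0.24, beside -0.0013 for all genes, and -0.29 to -0.13 with a mouse left out. With fenofibrate, 13 of 22 were below 0, with a median of -0.12. Of the 21 without fenofibrate, 1 was called lower, Gulo, which encodes the last enzyme of ascorbate synthesis (from 115 ± 9.94 to 71.5 ± 14.8 FPKM, SD, n = 5 each, log2 difference -0.69, limma adjusted p = 0.0281). Its limma adjusted p was 0.0753 without Ctrl 4, 0.0778 without a filter and 0.0672 under quantile normalization. The list had 0 calls without a filter and under quantile normalization, 2 lower by limma voom and 4 lower with all 4 groups in 1 fit. With fenofibrate, 2 of 22 rose and 2 fell in B2D+FF. The cytochrome P450 genes Cyp2c29 and Cyp3a11 rose by 1.05 and 0.76 on the log2 scale (limma adjusted p = 0.0145 and 0.0355). Both have close paralogs among which reads could have been split, so their values are uncertain. Rgn, which encodes regucalcin, a lactonase that also serves ascorbate synthesis, was at 359 ± 50.7 FPKM (SD, n = 4) in Ctrl+FF and 206 ± 14.9 (SD, n = 4) in B2D+FF (log2 difference -0.79, limma adjusted p = 0.00940). Slc1a4, a neutral amino acid carrier, had a log2 difference of -0.63 (limma adjusted p = 0.0246), and -1.05 by limma voom. Of the 8 fits without a mouse, Rgn and Cyp2c29 passed in 8, Slc1a4 in 4 and Cyp3a11 in 2. Without a filter Slc1a4 (0.0747) and Cyp3a11 (0.104) lost their calls, and with all 4 groups in 1 fit Cyp3a11 did (0.0756).

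Other periportal genes rose with B2D under fenofibrate more often than they fell. Of 19 tested, 7 rose and 0 fell in B2D+FF, and the median log2 difference was 0.30 beside 0.013 for all genes. Asl and Arg1 encode enzymes of the urea cycle, and they had log2 differences of 1.14 and 0.64 (limma adjusted p = 0.0277 and 0.0327). The urea cycle genes did not all rise, since Otc, kept in another list, had a log2 difference of -0.81 (limma adjusted p = 0.114). Tat, tyrosine aminotransferase, rose from 299 ± 84.6 to 751 ± 181 FPKM (SD, n = 4 each, log2 difference 1.35, limma adjusted p = 0.0188). Gldc, of the glycine cleavage system, rose by 0.58 (limma adjusted p = 0.00989) and Apoa4, an apolipoprotein, by 1.24 (limma adjusted p = 0.0103) on the log2 scale. Gldc and Apoa4 passed in all 8 fits without a mouse, Tat in 7, Arg1 in 2 and Asl in 1, and from 2 (without Ctrl+FF 1) to 7 genes of the list were called higher. With all 4 groups in 1 fit, 3 of the 19 were called higher, and Gldc (limma adjusted p = 0.0726), Apoa4 (0.135) and Arg1 (0.0644) lost their calls. Without a filter 2 were called, and Tat (0.0608), Asl (0.0800) and Arg1 (0.117) lost theirs. By limma voom 7 were called higher and 2 lower, Cyp2f2 (-0.73) and Ctsc (-0.37).

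Without fenofibrate, 1 of the 19 periportal genes fell in B2D and 0 rose. Cyp2f2, a cytochrome P450 gene used as a periportal marker, fell from 368 ± 14.6 to 158 ± 44.7 FPKM (SD, n = 5 each, log2 difference -1.26, limma adjusted p = 0.00557), and it passed in all 10 fits without a mouse. In B2D+FF its log2 difference was -0.72 (limma adjusted p = 0.0871). The median of the list was -0.019, and its sign turned under upper-quartile rescaling (0.013) and quantile normalization (0.030). Under quantile normalization 2 of the 19 were called higher in B2D, by limma voom without a filter 1, and with a mouse left out 0 to 2. In the difference between the experiments 18 of 19 periportal genes had an estimate above 0, with a median of 0.34, and 0 were called by limma (4 at an unadjusted p under 0.05). Under quantile normalization 12 of 19 were above 0.

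**Figure D4:**
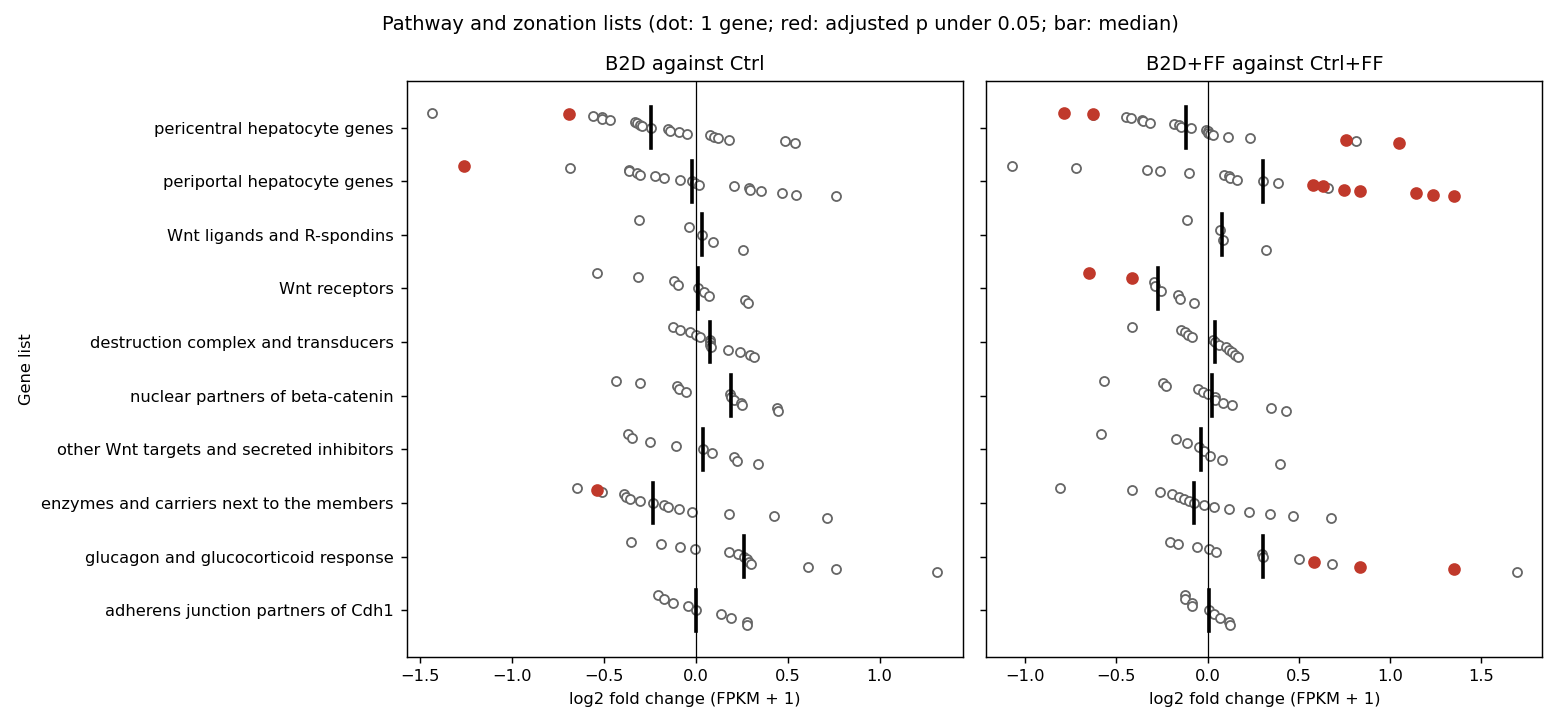
Log2 differences on log2(FPKM + 1) (horizontal axes) of the tested genes of 10 lists (vertical axis) in B2D against Ctrl and B2D+FF against Ctrl+FF, with 1 dot per gene, red for genes past the adjusted threshold and a bar at the median. The periportal list has 7 red dots to the right with fenofibrate and 1 to the left without it, and the Wnt receptors lie left of 0 with fenofibrate.

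Enzymes and carriers that act next to these genes in glutamine, proline, histidine and serine metabolism gave 1 call without fenofibrate and 0 with it, out of 15 tested in each (9 and 5 at an unadjusted p under 0.05). By limma voom 2 were called in each, Aldh4a1 and Otc (-0.67) without fenofibrate and Slc38a2 (0.73) and Srr (-0.46) with it. Aldh4a1, which completes proline breakdown, fell from 38.8 ± 3.19 to 26.5 ± 3.52 FPKM (SD, n = 5 each, log2 difference -0.54, limma adjusted p = 0.0281), and 5 of 10 fits without a mouse kept the call, which the fit without a filter did not (0.0582). Of 13 genes of the glucagon and glucocorticoid response, 0 were called without fenofibrate (5 at an unadjusted p under 0.05) and 3 rose with it, Tat (above), Fkbp5 (0.58, limma adjusted p = 0.0275) and Pck1 (0.84, limma adjusted p = 0.0407). Tat, Pck1 and G6pc also stand in the periportal list. Fkbp5 encodes a co-chaperone induced by glucocorticoids and Pck1 the cytosolic enzyme that commits carbon to gluconeogenesis. Fkbp5 and Pck1 each passed in 2 of 8 fits that left out a mouse. Both lost their call without a filter (0.0621 and 0.112), Fkbp5 with all 4 groups in 1 fit (0.430) and Pck1 under upper-quartile rescaling (0.0561). By limma voom Igfbp1, a fasting-induced binding protein of insulin-like growth factors, was also called higher in both comparisons (1.32 and 1.72).

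Markers of other liver cells moved in part. Thbd, an endothelial gene that is high at the central vein, rose in both comparisons, by 1.01 and 1.35 on the log2 scale (limma adjusted p = 0.0346 and 0.0245) and by 1.54 and 2.04 by limma voom, and Lyve1, of sinusoidal endothelium, rose by 0.77 with fenofibrate (limma adjusted p = 0.0294). Summed FPKM of the 12 endothelial markers was 34.7 to 48.5 in Ctrl, 44.0 to 50.5 in B2D, 33.4 to 39.2 in Ctrl+FF and 38.3 to 46.0 in B2D+FF. The list did not rise as a whole with fenofibrate. Of the 10 endothelial markers tested, 7 had an estimate above 0 without fenofibrate (median log2 difference 0.20). With it 3 were above 0 and 7 below (median -0.072). Clec4f, a Kupffer cell marker, fell without fenofibrate (log2 difference -0.47, limma adjusted p = 0.0412), and the 6 Kupffer markers summed to 46.3 to 58.4 FPKM in Ctrl and 34.5 to 55.2 in B2D. With fenofibrate the log2 difference of Clec4f was -0.62 and was not called (limma adjusted p = 0.108). Of the 6 Kupffer markers, 5 had an estimate below 0 and 1 above it in each comparison. Of the 8 fits with fenofibrate that left out a mouse, 4 kept Thbd and 4 Lyve1. Of the 10 without fenofibrate, 3 kept Thbd and 1 Clec4f. The call of Clec4f was also lost without a filter (limma adjusted p = 0.0812), under upper-quartile rescaling (0.0662) and quantile normalization (0.102), by limma voom without a filter (0.0535) and with all 4 groups in 1 fit (0.0639). Without a filter the calls of Thbd (0.120 and 0.0768) and Lyve1 (0.0800) were lost as well. Of the 20 calls named in these lists, 14 were lost without a filter and 8 with all 4 groups in 1 fit. Stellate markers summed to 20.9 to 58.8 FPKM over all mice. The stellate, cholangiocyte and hepatocyte markers had 0 genes called by limma in either comparison (1, 0 and 0 at an unadjusted p under 0.05 without fenofibrate and 1, 2 and 2 with it). By limma voom 1 was called, Col3a1 in B2D+FF (log2 difference -1.69). Of the proliferation markers, 0 reached the filter. Pancreatic acinar markers summed to 1.77 to 7.55 FPKM, nearly all of it Cela1, and Amy2a5 was at 0 in all 18 libraries. The part of these cell types in the zonation genes was not tested. Of the genes above that lost their call with a mouse left out, the adjusted p was highest without Ctrl 4 for Gulo, Aldh4a1, Thbd and Clec4f in B2D against Ctrl. With fenofibrate it was highest without Ctrl+FF 1 for Cyp3a11, Tat, Fzd4, Fkbp5, Pck1 and Lyve1, without Ctrl+FF 2 for Slc1a4, Asl, Arg1 and Fzd8, and without Ctrl+FF 3 for Thbd.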

How the data were processed

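Liver mRNA libraries of 18 mice were sequenced with paired ends. The authors used STAR to align reads to mm10, featureCounts for expression levels per gene and DESeq2 for their own tests. Tool versions, the annotation release and the strand setting are not given in the sources used here. They deposited 2 tables of FPKM values, named RPKM in the methods, each scaled on its own by the authors. Multiplied by gene length and divided by what 1 read is worth in that library, 100% of values of up to 1000 reads were whole (tolerance 0.02 reads).

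The main test was limma 3.58.1 (R 4.3.3) on log2(FPKM + 1) for genes averaging 0.5 FPKM or more (trend, two-sided, Benjamini-Hochberg over all genes tested, threshold 0.05), each table alone. This fold change understates that of low genes. The difference of diet effects was a contrast in 1 fit of 18 libraries. Lgr5 was fitted without the filter. Replicates were separate mice. The script was tested on simulated data. The 10 genes, the 10 pathway lists, the 7 marker lists and the rule for naming genes (all 10 genes, and of each list up to 5 genes past the threshold, smallest adjusted p first) were chosen with earlier results of these data known. Alternatives were a pseudocount of 0.1, no filter, a mean FPKM of at least 5, upper-quartile rescaling (75th percentile), quantile normalization, limma voom on recovered reads with TMM scaling, all 4 groups in 1 fit and each library left out. Limma voom with no filter was added after seeing the data. Library depth limits genes with few reads, and a floor of 3 reads was reached by none of the 10 genes. The promoter search covered 5 of the 10 genes, and Tf, a hepatocyte marker, was not found by name. Genes called by limma voom and not by limma (Ctsc, Col3a1, Otc, Slc38a2, Srr, Igfbp1, Amer1, Tle3 and Cldn2, and Cyp2f2 with fenofibrate) fell outside that naming rule and were named after their values were seen. The genes most like Glul are not reported here.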

Additional observations from a re-analysis of the deposited data

Results flagged for a closer look

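Over the 40 sets of values formed by 10 genes in 4 groups, 4 held a mouse far from the others of its group by Dixon's 95% criterion, where chance gives about 1 in 20. Oat in Ctrl+FF 1 was at 639 FPKM with the next mouse at 375, Tbx3 in B2D 1 was at 12.2 FPKM with the next at 5.63, Znrf3 in B2D 3 was at 2.20 FPKM with the next at 1.68, and Hal in Ctrl 3 was at 98.4 FPKM with the next at 64.4. Each was the highest of its group.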

How the results depend on the processing

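None of the 10 zonation genes was called under any alternative except Sds in B2D+FF against Ctrl+FF by limma voom without a filter (1 gene, adjusted p = 0.0454). Leaving out each mouse kept the number called at 0 in all comparisons. Genes called over the whole table were 67 without a filter and 731 with all 4 groups in 1 fit for B2D against Ctrl (98 to 332 with a mouse left out, lowest without Ctrl 4), 272 without a filter for B2D+FF against Ctrl+FF (175 to 596, lowest without Ctrl+FF 1), and 16 with a pseudocount of 0.1 and 12 by limma voom for the difference (17 to 66, lowest without Ctrl+FF 2). Estimates near 0 changed sign. Without fenofibrate these were Lgr5 by limma voom without a filter (-0.048), Rnf43 under upper-quartile rescaling (0.0043) and Znrf3 under quantile normalization (-0.011). With fenofibrate they were Znrf3 (-0.018) and Cdh1 (-0.028) under upper-quartile rescaling. In the difference they were Glul under quantile normalization (-0.018) and Znrf3 under upper-quartile rescaling (-0.049). With a mouse left out, values ran without fenofibrate from -0.022 to 0.22 for Axin2, -0.021 to 0.089 for Lgr5, -0.18 to 0.18 for Rnf43, -0.27 to 0.037 for Sds and -0.048 to 0.12 for Znrf3. With fenofibrate they ran from -0.064 to 0.35 for Oat, -0.017 to 0.050 for Lgr5, -0.025 to 0.070 for Znrf3, -0.052 to 0.24 for Hal and -0.15 to 0.14 for Cdh1. In the difference they ran from -0.22 to 0.20 for Oat, -0.070 to 0.040 for Lgr5 and -0.10 to 0.064 for Znrf3. The share of called genes that were higher in B2D+FF moved from 50.3% to 37.9% under upper-quartile rescaling, and in the difference from 55.6% to 41.9%. The causes were not tested. Lgr5 has no value in fits with a filter. No paired analysis was possible because each library came from a different mouse.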
